A study of Mus musculus with 8 samples.

Results

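The genes described here are 28 mouse genes that make, sense, move or store cholesterol, taken by name from 55401 genes measured in regenerating liver. All 28 passed the filter on low counts, together with other genes to a total of 13908. They comprise 18 enzymes of the synthesis pathway, 4 genes of the SREBP2 control system, 3 genes of uptake control and intracellular transport (Mylip, Npc1 and Stard4), the esterifying enzymes Soat1 and Soat2, and the efflux pump Abca1. The list does not hold every gene of the pathway.

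Liver RNA came from C57BL/6J mice on day 2 after partial hepatectomy, an operation that takes out most of the organ. Each mouse had received, 4 weeks before surgery, an adeno-associated virus that carried a short hairpin RNA to hepatocytes, either the control hairpin (shNC, 4 libraries) or one against Tbl1xr1 (shTbl1xr1, 4 libraries). All 8 libraries therefore share the virus, the surgery and the day, and there is no group without surgery. Only hepatocytes were targeted while whole liver was sequenced, and nothing in the labels ties each library to its own animal, so p-values reflect only how far these libraries spread, which may be technical. In whole liver, fewer cells of a type and less RNA per cell cannot be told apart.

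Hepatocytes make cholesterol from acetyl-CoA through mevalonate, squalene and lanosterol. The transcription factor SREBP2, encoded by Srebf2, is held in the endoplasmic reticulum by Scap and the Insig proteins when sterols are plentiful and, when they are scarce, moves on to switch on nearly every enzyme of the route. Oxysterols act in the opposite sense through the LXR receptors, which raise the efflux pump Abca1 and Mylip, a ubiquitin ligase that removes lipoprotein receptors. Tbl1xr1 encodes a subunit of the NCoR corepressor complex, which represses genes bound by nuclear receptors.

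Because SREBP2 acts with the CCAAT-binding factor NF-Y, promoters were searched for the CCAAT box (CCAAT or, on the other strand, ATTGG) and for the sterol regulatory element as TCACNCCAC (or GTGGNGTGA). The windows, credited to RefSeq on GRCm38.p6, run from 250 bases before to 50 bases after each gene's start and were found for 22 of the 28 genes. A CCAAT box was present for 14 of the 15 enzymes with a window and for 5 of the other 7 genes (Srebf2, Insig1, Insig2, Mylip and Soat1), against 41.1% of 27025 genes with a window. The letters TCACNCCAC occurred for Hmgcs1 alone among the 22, against 1.44% of all genes. Only exact matches were counted, so variants of the element would be missed. The 4 promoters below show a pathway enzyme with that exact match, the regulator Srebf2, and 2 enzymes with 3 or more CCAAT boxes. Each is the 200 bases before the start, 5′ to 3′ on the gene's strand, with both motifs in capitals. Hmgcs1 lies at chr13:119690151-119690350 (plus strand), Srebf2 at chr15:82147069-82147268 (plus), Mvk at chr5:114444069-114444268 (plus) and Msmo1 at chr8:64733579-64733778 (minus).
Hmgcs1: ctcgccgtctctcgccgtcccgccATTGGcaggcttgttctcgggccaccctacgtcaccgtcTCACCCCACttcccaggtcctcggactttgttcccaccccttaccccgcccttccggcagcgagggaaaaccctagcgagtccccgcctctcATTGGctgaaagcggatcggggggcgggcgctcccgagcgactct
Srebf2: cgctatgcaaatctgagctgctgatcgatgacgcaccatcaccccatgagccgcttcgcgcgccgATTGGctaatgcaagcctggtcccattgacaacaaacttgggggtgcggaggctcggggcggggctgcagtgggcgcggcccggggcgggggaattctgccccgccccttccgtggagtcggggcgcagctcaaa
Mvk: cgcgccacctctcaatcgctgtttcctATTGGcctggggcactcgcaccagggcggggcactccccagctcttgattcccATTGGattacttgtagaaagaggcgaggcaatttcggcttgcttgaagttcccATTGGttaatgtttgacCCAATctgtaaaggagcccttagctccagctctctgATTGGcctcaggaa
Msmo1: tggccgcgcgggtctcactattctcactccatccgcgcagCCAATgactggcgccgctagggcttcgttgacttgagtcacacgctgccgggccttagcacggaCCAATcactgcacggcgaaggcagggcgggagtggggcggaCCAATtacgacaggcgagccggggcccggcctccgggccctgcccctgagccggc
In Hmgcs1 the sterol element begins 137 bases before the start, and the CCAAT boxes shown begin 176 and 45 bases before it. These matches describe letters in a window and show no binding.

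Library totals were 25811763 to 27537235 expected counts in shNC, and 10895508, 10728583, 26976205 and 36720879 in shTbl1xr1 1 to 4. The libraries shTbl1xr1 1 and 2, called the shallow pair here, also stood apart in mitochondrially encoded counts (11.3% and 14.8%, against 4.52% to 7.34% in the other 6) and are treated separately where a result rests on them. The targeted gene Tbl1xr1 was at 27.2, 35.9, 33.7 and 34.6 CPM (TMM-normalised counts scaled to a common library size) in shNC 1 to 4 and at 2.38, 2.07, 9.24 and 15.9 CPM in shTbl1xr1 1 to 4. It was thus lower in every knockdown library, most of all in the shallow pair (two-sided exact permutation p = 0.0286, the smallest that 4 against 4 can give; edgeR adjusted p = 0.290). Hepatocyte markers, Alb among them, made up a summed 66221 to 83904 CPM in the controls and 59412 to 102137 CPM after knockdown, and 0 of the 10 were at 0 in every library.

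None of the 28 cholesterol genes passed the test of a difference between the groups. In edgeR's quasi-likelihood test, with p-values adjusted by Benjamini-Hochberg over 13908 genes and a threshold of 0.05, 0 of 28 members passed, where 0.0503% of all genes did. At an unadjusted p under 0.05 it was also 0 of 28, against 11.6% of all genes, and DESeq2 called 0 of 28, against 2.12%. Scaling by library size alone and a fit with a replicate block also called 0 of 28, against 0.0288% and 0.036%. The groups did not overlap for 0 of 28 members, against 7.25% of all genes. The members' log2 fold changes (shTbl1xr1 over shNC) ran from -0.63 for Mylip to 0.86 for Tm7sf2, 18 of 28 were positive, and their median was 0.18, beside 0.01 over all tested genes. Intervals were wide: the median 95% interval of an enzyme reached 0.84 log2 units to either side of its estimate, against 0.59 over all genes, so a missed threshold does not show that an enzyme was at the same level in both groups.

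**Figure D1:**
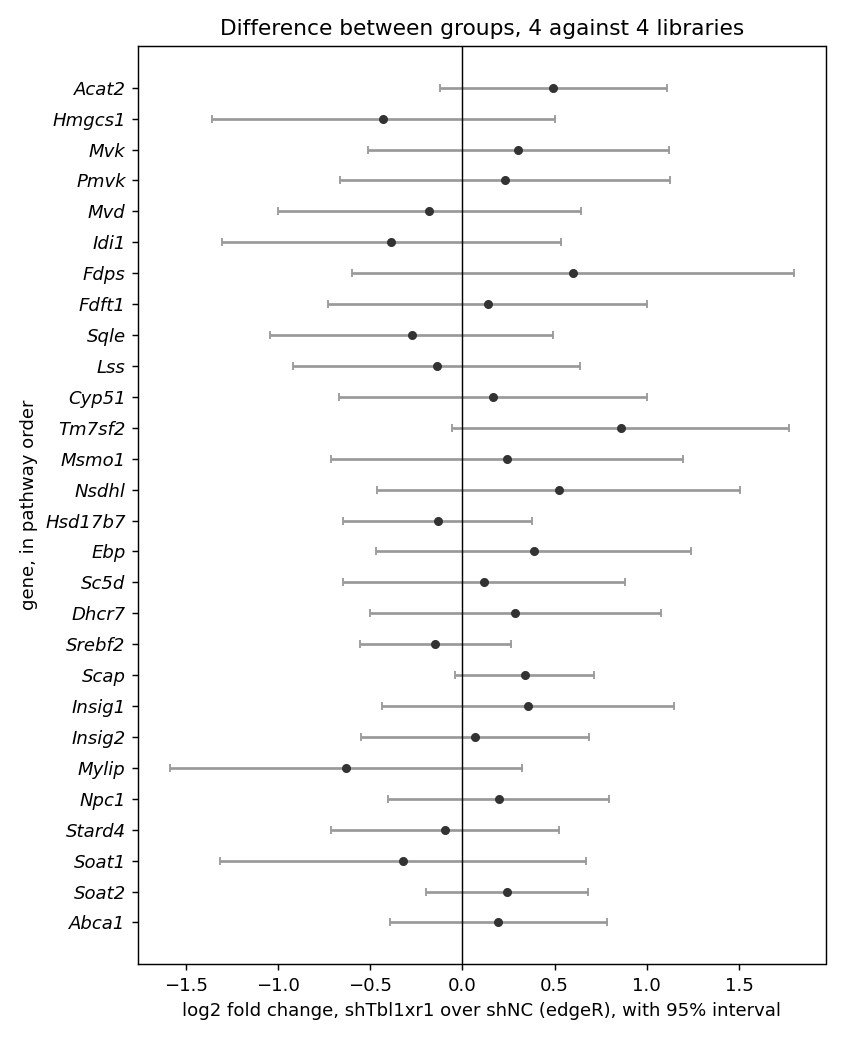
Log2 fold changes of the 28 genes in shTbl1xr1 over shNC (x axis, edgeR, 4 against 4 libraries), in pathway order (y axis), with 95% intervals as bars. Every interval includes 0, and the lowest and highest estimates are -0.63 for Mylip and 0.86 for Tm7sf2.

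The enzymes instead moved together from library to library, in the controls as well. In shNC 1 to 4 the median enzyme lay at -0.51, 0.64, -0.20 and 0.07 on the log2 CPM scale relative to its shNC mean, and in shTbl1xr1 1 to 4 at 1.01, 0.16, -0.61 and -0.27. Of the 18 enzymes, 16 had their highest control level in shNC 2, and 17 had their highest knockdown level in shTbl1xr1 1. All 18 were above the shNC mean in shTbl1xr1 1 and 13 in shTbl1xr1 2, against 2 in shTbl1xr1 3 and 4 in shTbl1xr1 4. Over all tested genes these shares were 47.3%, 46.5%, 48.9% and 50.4%. The spread within the controls was large for the enzymes, with a median SD of 0.51 log2 units, against 0.20 for the 10 control and handling genes and 0.20 over all genes. The SD of 8 of 18 enzymes was above the 90th percentile of tested genes.

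**Figure D2:**
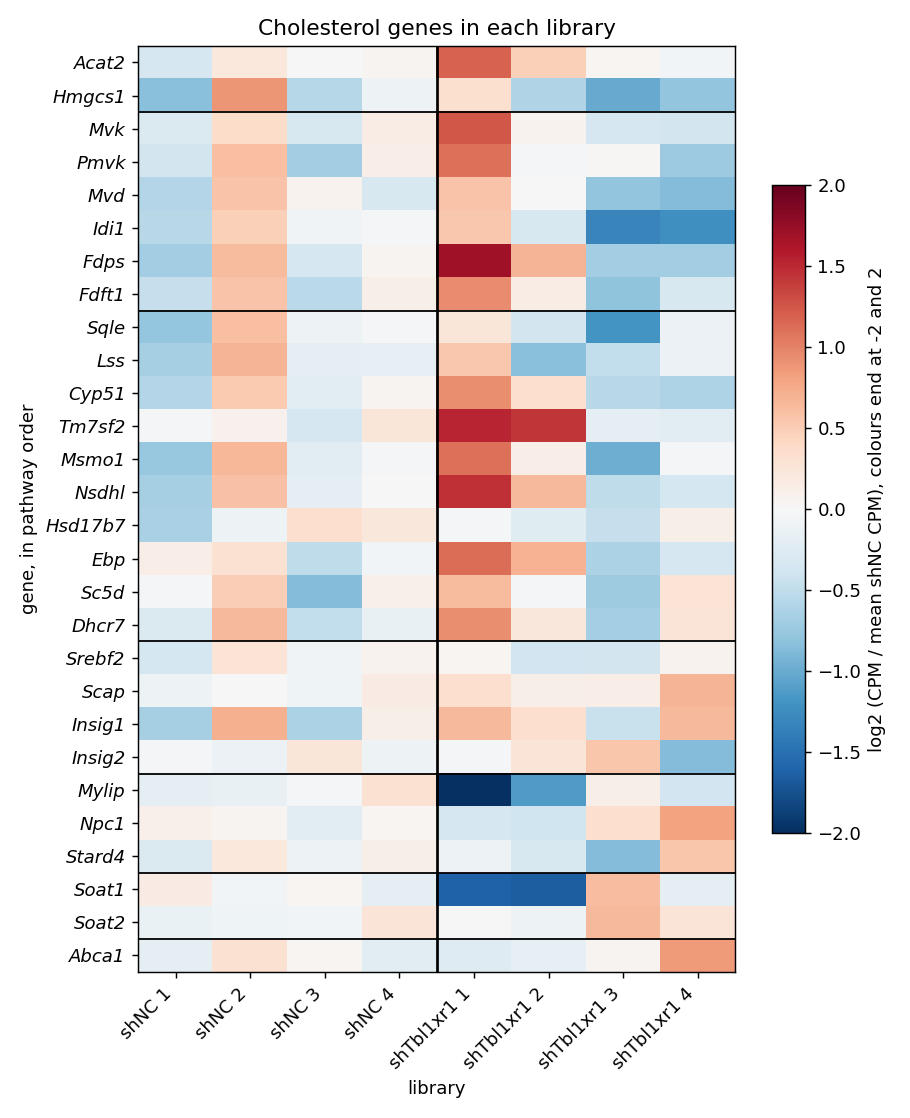
Level of each gene (rows, in pathway order, with lines between roles) in each library (columns), as log2 of its CPM over its mean shNC CPM, with red above and blue below the shNC mean. The enzymes in the upper rows are mostly red in shNC 2 and shTbl1xr1 1 and mostly blue in shNC 1, shTbl1xr1 3 and shTbl1xr1 4, while Mylip and Soat1 are dark blue in shTbl1xr1 1 and 2.

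At the entrance to the pathway, Hmgcs1, the synthase that makes HMG-CoA, had 103, 339, 124 and 172 CPM in shNC 1 to 4 and 230, 121, 91.5 and 106 CPM in shTbl1xr1 1 to 4. The highest library was a control and the lowest a knockdown, and the groups overlapped (log2 fold change -0.43, SE 0.42, adjusted p = 0.656). Its highest control was 3.27 times its lowest, the widest control range among the 28. Acat2, the cytosolic thiolase that supplies acetoacetyl-CoA, had 43.9, 64.0, 55.1 and 57.5 CPM in the controls and 125, 77.1, 56.4 and 53.1 CPM after knockdown. In CPM only the shallow pair lay above the controls (0.49, SE 0.27, adjusted p = 0.472).

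From mevalonate to squalene, 4 of 6 log2 fold changes were positive. Fdps, the farnesyl diphosphate synthase (ENSMUSG00000059743.12; chromosome 3, 89093588 to 89101959, minus strand, mm10), had 72.4, 182, 93.3 and 121 CPM in the controls and 380, 188, 72.4 and 72.6 CPM after knockdown. Its knockdown libraries spanned 5.25-fold, from the lowest control level to above the highest, which left an interval of -0.60 to 1.80 around a log2 fold change of 0.60 (SE 0.53). Idi1, the isopentenyl diphosphate isomerase (ENSMUSG00000058258.14; chromosome 13, 8885501 to 8892451, plus strand), had 80.5, 165, 113 and 117 CPM in the controls and 172, 94.7, 47.6 and 50.8 CPM after knockdown. Here shTbl1xr1 3 and 4 lay below every control while shTbl1xr1 1 lay above every control (-0.38, SE 0.41, adjusted p = 0.690). The kinases Mvk and Pmvk and the decarboxylase Mvd, which act in turn on mevalonate, had log2 fold changes of 0.30, 0.23 and -0.18. Mvk was at 15.2, 24.0, 14.9 and 20.7 CPM in the controls and 44.4, 19.6, 14.8 and 14.5 CPM after knockdown, again with shTbl1xr1 1 alone above the controls. Fdft1, the squalene synthase, had 50.9, 104, 48.3 and 76.3 CPM in the controls and 135, 77.5, 40.2 and 56.1 CPM after knockdown, the highest and the lowest both after knockdown. It shares 774 exonic bases with the abundant protease gene Ctsb on the opposite strand, and since the strand setting is not given in the sources used here its reads could be split between them.

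Of the 10 enzymes from squalene to cholesterol, 7 had positive and 3 negative log2 fold changes. Tm7sf2, a sterol reductase (ENSMUSG00000024799.16; chromosome 19, 6062821 to 6068373, minus strand), was at 39.7, 43.2, 32.2 and 48.0 CPM in the controls and 117, 110, 35.5 and 35.3 CPM after knockdown. In CPM both shallow libraries were more than 2-fold above every control, and shTbl1xr1 3 and 4 were within the control range. This was the largest estimate among the 28, a log2 fold change of 0.86 (SE 0.41, interval -0.05 to 1.77, adjusted p = 0.428). In TPM the shallow pair was at 64.5 and 53.4, against 39.6 to 56.3 in shNC, so only shTbl1xr1 1 was above every control. Tm7sf2 shares 532 exonic bases with Vps51 on the same strand. Nsdhl, which helps strip methyl groups from the sterol ring, had 22.0, 52.2, 30.9 and 34.6 CPM in the controls and 95.8, 54.4, 24.6 and 27.2 CPM after knockdown. Ebp, the sterol isomerase, had 281, 314, 180 and 247 CPM in the controls and 557, 414, 165 and 203 CPM after knockdown. For both, in CPM, the shallow pair was above every control and the other pair in the lower part of the control range or under it (log2 fold changes 0.52 and 0.39).

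Squalene epoxidase Sqle, a rate-limiting step after squalene (ENSMUSG00000022351.14; chromosome 15, 59315077 to 59331192, plus strand), behaved otherwise, with 25.2, 65.6, 40.5 and 42.0 CPM in the controls and 51.3, 33.4, 19.0 and 40.0 CPM after knockdown. None of its knockdown libraries exceeded the highest control, and shTbl1xr1 3 lay below the lowest (-0.27, SE 0.34, adjusted p = 0.735). The lanosterol synthase Lss and the ketoreductase Hsd17b7 likewise stayed without a library above the controls, at log2 fold changes of -0.14 and -0.13. The lanosterol demethylase Cyp51 had 91.2 ± 29.8 and 103 ± 54.1 CPM, the methylsterol oxidase Msmo1 73.4 ± 30.6 and 87.0 ± 50.8 CPM, and the desaturase Sc5d 285 ± 100 and 309 ± 113 CPM in shNC and shTbl1xr1 (SD, n = 4 each). Dhcr7, which completes the route by reducing dehydrocholesterol, had 74.9 ± 29.0 and 91.7 ± 39.8 CPM. In each of these 4 the difference was smaller than the SD of either group.

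Compared per length in the deposited TPM (a transcript's share of all transcripts, scaled alike in each library), the most abundant enzyme transcripts in shNC were Ebp at 247 ± 48.3 TPM, Sc5d at 173 ± 67.4 TPM and Fdps at 148 ± 60.9 TPM (SD, n = 4). The lowest were Mvd at 9.21 ± 3.52 TPM and Lss at 9.79 ± 5.20 TPM. The 3 highest overlapped in their spread with each other, as did the 2 lowest, while the 3 and the 2 did not overlap.

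In the controls, the SDs of log2 CPM were 0.12 for Scap, 0.17 for Insig2, 0.26 for Srebf2 and 0.66 for Insig1, beside the median of 0.51 for the enzymes. Srebf2 had 41.9, 64.1, 50.7 and 56.2 CPM in the controls and 54.6, 40.9, 41.3 and 55.7 CPM after knockdown. All but 2 knockdown libraries lay inside the control range, and those 2 were just under it (log2 fold change -0.15, SE 0.18, interval -0.56 to 0.26). Scap, the sterol-sensing escort of SREBP2 (ENSMUSG00000032485.14; chromosome 9, 110333288 to 110384950, plus strand), had 65.4, 69.96, 66.0 and 77.9 CPM in the controls and 88.2, 75.8, 76.8 and 112 CPM after knockdown. Its 4 knockdown libraries were above 3 of the 4 controls, and 2 of them did not exceed shNC 4 (0.34, SE 0.17, adjusted p = 0.438). Insig1, a retention protein that is itself an SREBP target, had 70.2, 182, 71.9 and 121 CPM in the controls and 174, 140, 82.0 and 175 CPM after knockdown. It followed the enzymes in the controls and in shTbl1xr1 1, but in shTbl1xr1 4, where 14 of 18 enzymes were below the shNC mean, it was near its highest control level (0.36, SE 0.35).

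Insig2, the paralog with a liver-specific transcript, had 181, 172, 221 and 174 CPM in the controls and 184, 224, 273 and 103 CPM after knockdown (log2 fold change 0.07, SE 0.28). The mean transcript length that the authors' quantification assigned to the gene stood apart in the shallow pair alone: it was 1198 to 1604 bases in shNC, 2307 and 2482 bases in the shallow pair, and 1450 bases in both shTbl1xr1 3 and 4. Npc1 moved the other way, at 3575 to 4909 bases in shNC, 2583 and 2325 bases in the shallow pair and 4786 and 4611 bases in shTbl1xr1 3 and 4. Some genes outside the 28 shifted too, in either direction. Fasn was at 2474 and 2583 bases in the shallow pair, against 3870 to 7382 bases in shNC. Acaca was at 9026 bases in both shallow libraries, against 5290 to 8262 bases in shNC. Among the controls, shNC 1 lay nearest the shallow pair for Insig2, Npc1, Fasn and Acaca, at 1604, 3575, 3870 and 8262 bases. The other controls were at 1198 to 1507, 4771 to 4909, 6065 to 7382 and 5290 to 6846 bases. These genes were chosen after their lengths were seen, and the lengths have no test. Which transcripts lie behind them was not analysed here.

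Among the genes that move and store cholesterol, the level turned on which knockdown libraries were read. Npc1, which exports cholesterol from lysosomes, had 89.9, 86.9, 72.8 and 85.6 CPM in the controls and 66.3, 63.5, 106 and 147 CPM after knockdown. The shallow pair was below every control and the other pair above every control, an arrangement that 2.5% of tested genes shared (0.20, SE 0.27, adjusted p = 0.755). Soat2, the sterol acyltransferase of hepatocytes, had 12.5, 12.9, 13.2 and 16.3 CPM in the controls and 13.6, 12.8, 21.5 and 16.4 CPM after knockdown, with shTbl1xr1 3 and 4 above the controls, the latter by little (0.24, SE 0.20). Abca1 had 112, 157, 130 and 109 CPM in the controls and 107, 114, 131 and 229 CPM after knockdown, so that shTbl1xr1 4 alone was above the control range (0.20, SE 0.26). Stard4, a soluble sterol carrier, had 54.4 ± 8.13 and 50.9 ± 21.1 CPM (SD, n = 4 each).

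Soat1, the acyltransferase of most other cells, including macrophages (ENSMUSG00000026600.12; chromosome 1, 156424525 to 156474331, minus strand), had 7.79, 6.66, 7.14 and 6.10 CPM in the controls and 2.25, 2.21, 10.6 and 6.10 CPM after knockdown. Mylip (ENSMUSG00000038175.10; chromosome 13, 45389742 to 45412022, plus strand) had 6.64, 6.79, 7.40 and 9.33 CPM in the controls and 1.25, 3.45, 8.15 and 5.80 CPM after knockdown. Both were below every control in the shallow pair and not so in shTbl1xr1 3. In shTbl1xr1 4 Mylip was below every control as well, while Soat1 was level with its lowest control. In the shallow pair both rest on few reads, with as few as 16 counts for Soat1 and 10 for Mylip. The summed level of the 10 macrophage markers was also lower in the shallow pair. It was 540.6 to 873.3 CPM in shNC and 282.5 and 303.5 CPM in the shallow pair. In shTbl1xr1 3 and 4 it was 623.8 and 665.0 CPM, within the control range, although Mylip was below its own control range in shTbl1xr1 4. In the shallow pair C1qa stayed within its control range of 48.0 to 75.9 CPM, at 50.1 and 52.8 CPM. The rest of these markers were below theirs. The 8 endothelial markers (254.3 to 290.1 CPM in shNC) were at 167.9 and 151.1 CPM in the shallow pair and 302.0 and 277.2 CPM in the other. The 8 stellate cell markers (242.1 to 434.2 CPM in shNC) were at 123.4 and 118.9 CPM, and 493.1 and 267.8 CPM. Des among them stayed within its control range of 5.49 to 11.8 CPM in the shallow pair, at 7.39 and 5.80 CPM. The 6 bile duct markers were at 37.1 and 55.0 CPM in the shallow pair, within the 31.7 to 117.9 CPM of shNC. The 6 neutrophil markers were at 2.38 and 3.73 CPM there, against 2.62 to 8.07 CPM in shNC. These sums carry no correction for transcript length. None of the markers of these lists was at 0 in every library, and 0 passed the test. The part of these cells in the levels of Soat1 and Mylip was not tested.

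Read separately, the shallow pair and shTbl1xr1 3 and 4 gave opposite estimates for most enzymes. The mean log2 difference from shNC was positive for 16 of 18 enzymes in the shallow pair, with a median of 0.64, and negative for 17 of 18 in shTbl1xr1 3 and 4, with a median of -0.38. Medians over all tested genes were -0.09 and 0.00. Against the 4 controls alone, edgeR called 5 members higher in the shallow pair (Acat2, Fdps, Tm7sf2, Nsdhl and Ebp) and 3 lower (Mylip, Npc1 and Soat1), where it called 21.5% of all genes higher and 21.1% lower, so that neither share exceeds the background. In CPM the same 5 were above every control in the shallow pair and the same 3 below, against 29.2% and 32.9% of all genes. With shTbl1xr1 3 and 4 alone, 0 members passed, against 0.0478% of all genes. There Mvk, Mvd and Idi1 were below every control, 3 of 28 against 10.4% of all genes, and Npc1 and Soat2 above every one, 2 of 28 against 10.6%. Both comparisons use the same 4 controls. The shallow pair also has the lowest Tbl1xr1, the highest mitochondrial share and the trend with transcript length described below. Depth, strength of knockdown and these other differences therefore cannot be told apart.

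**Figure D3:**
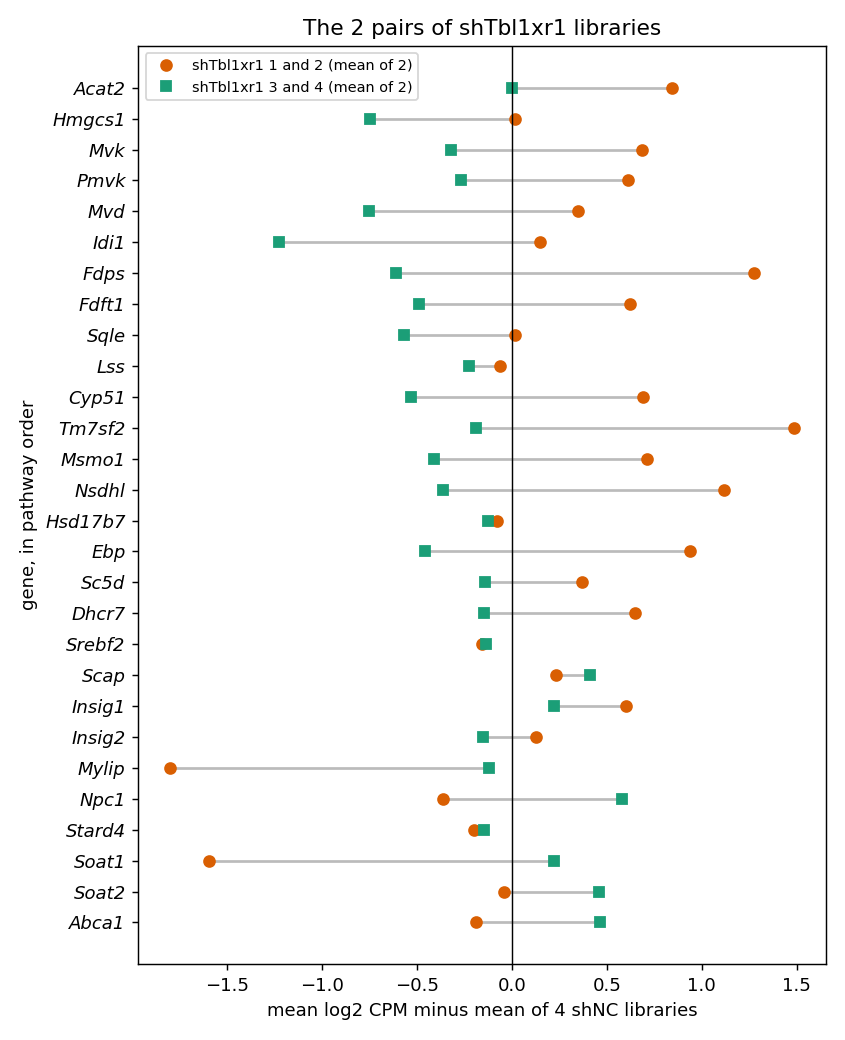
Mean log2 CPM of each gene (y axis, in pathway order) minus the mean of the 4 shNC libraries (x axis), for shTbl1xr1 1 and 2 (circles) and shTbl1xr1 3 and 4 (squares), with a line joining the pair. Most enzymes have their circle right of 0 and their square left of it. Scap, Mylip, Npc1, Soat1, Soat2 and Abca1 have the circle left of the square, as do Srebf2 and Stard4 by little.

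Transcript length moved with the shallow pair. Among all tested genes, the 1391 shortest (median 737.5 bases) were at a median of 0.93 above shNC on the log2 CPM scale in the shallow pair and the 1391 longest (median 6226 bases) at -0.68, against -0.14 and 0.14 in shTbl1xr1 3 and 4. The enzymes had a median length of 2265 bases, near the 2420 bases of all tested genes, whereas the 10 control and handling genes had 3667 bases. With the trend on length taken out of each library, an alternative chosen after seeing the data, the median enzyme lay at 0.96, 0.21, -0.57 and -0.21 in shTbl1xr1 1 to 4, close to the values without that step. All 18 enzymes were still above the shNC mean in shTbl1xr1 1, and 3 or fewer were in shTbl1xr1 3 and in shTbl1xr1 4. For the control and handling genes the medians in the shallow pair changed from -0.05 and -0.22 to 0.28 and 0.05. Under that alternative 0 of 28 members passed, against 0.209% of all genes.

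**Figure D4:**
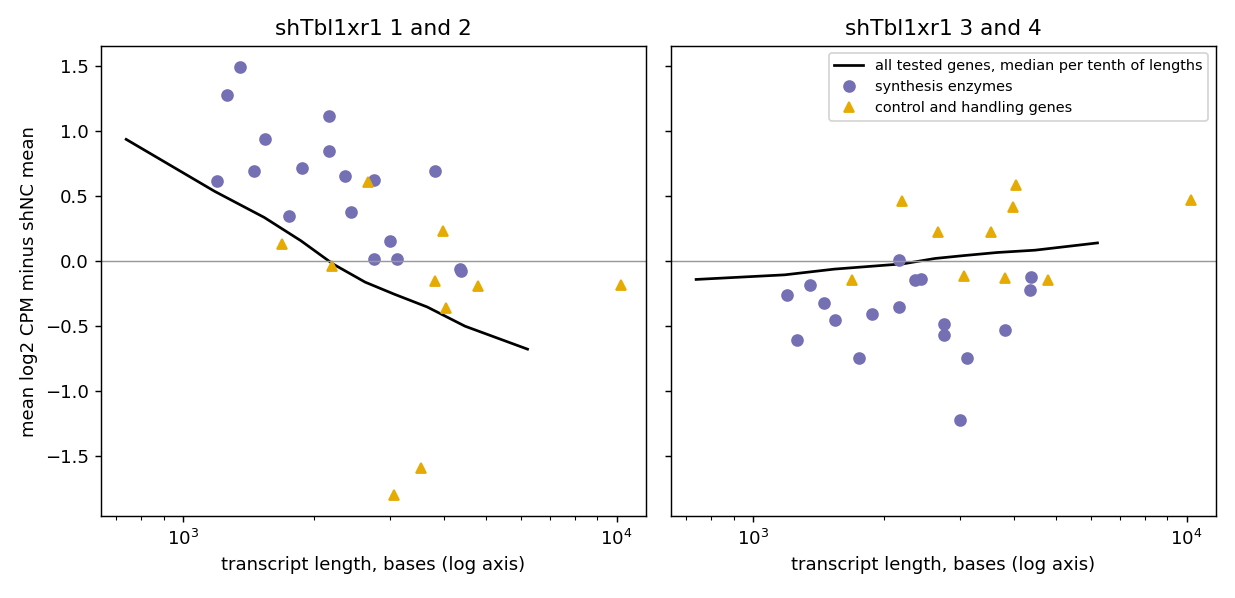
Mean log2 CPM minus the shNC mean (y axis) against mean transcript length in bases (x axis, log scale), for shTbl1xr1 1 and 2 (left) and shTbl1xr1 3 and 4 (right). The line is the median of all tested genes in each of 10 length bins and falls from 0.93 to -0.68 on the left; most enzymes (circles) lie above it on the left and below it on the right, and Mylip and Soat1 are the lowest triangles on the left.

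The unit mattered for the shallow pair. On the scale of log2 of deposited TPM plus 1, the median enzyme lay at -0.08 and -1.01 in shTbl1xr1 1 and 2, instead of 1.01 and 0.16 in TMM-normalised CPM, and at -0.47 and -0.17 in shTbl1xr1 3 and 4. The median of all tested genes was itself at -0.66 and -0.79 in the shallow pair on the TPM scale. Relative to all genes the enzymes were thus still higher in shTbl1xr1 1 on both scales, while in shTbl1xr1 2 the sign differed between them. Fdps shows it: both shallow libraries were above every control in CPM, but at 237 and 103 TPM, against 83.0, 228, 126 and 154 TPM in shNC, only shTbl1xr1 1 was above every control. Acat2 and Tm7sf2 likewise had only shTbl1xr1 1 above every control in TPM. Nsdhl and Ebp had neither shallow library above every control in TPM.

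Of 28 other sterol pathway genes, all tested, 0 passed over all genes, 17 had positive log2 fold changes, and the median was 0.05. The 4 with the smallest p were Abcg8, Abcg5, Stard5 and Stard3. Abcg8, whose product pairs with that of Abcg5 to pump sterols into bile (ENSMUSG00000024254.15; chromosome 17, 84676302 to 84700333, plus strand), had 31.4, 24.5, 18.8 and 32.9 CPM in the controls and 49.9, 57.6, 63.7 and 72.4 CPM after knockdown. In CPM every knockdown library was above every control, and shTbl1xr1 3 and 4 as well as the shallow pair took part (log2 fold change 1.18, SE 0.21, adjusted p = 0.127). In TPM the shallow pair, at 10.8 and 9.52, lay within the shNC range of 9.18 to 15.5. There shTbl1xr1 3 and 4, at 32.4 and 35.7 TPM, were above it. Other fits did call it: DESeq2 gave an adjusted p of 5.5e-05 (2.12% of genes called), the fit with 1 surrogate variable 0.0404 (0.302% called), and that with the length trend removed 0.0270, while shTbl1xr1 3 and 4 alone gave 0.142 and library size alone 0.583. Abcg5 had 34.3, 20.9, 19.8 and 33.6 CPM in the controls and 34.2, 36.6, 80.2 and 73.2 CPM after knockdown (1.05, SE 0.33, adjusted p = 0.345). In CPM it was at the top of the control range in shTbl1xr1 1 and above it in the other 3. In TPM it was below every control in the shallow pair. The genes overlap on opposite strands, with 82 shared exonic bases. In CPM the groups did not overlap for 4 of the 28, or 14.3%, against 7.25% of all genes. All 4 were higher after knockdown (Abcg8, Stard5, Stard3 and Mbtps2, which encodes a protease that releases SREBPs). In TPM the shallow pair was instead below every control for Stard5, Stard3 and Mbtps2. Most genes were low there: on the scale of log2 of TPM plus 1, 11.8% and 8.08% of all tested genes exceeded their shNC mean in shTbl1xr1 1 and 2. The share of all genes below every control in TPM was not counted. Log2 fold changes were 0.48 for Stard5 and 0.30 for Stard3, both sterol carriers, and the value of Stard3 was 0.01 with scaling by library size alone.

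Of the 15 genes of fatty acid synthesis, 14 were tested, 12 had positive log2 fold changes and 0 passed. Their median difference from shNC in log2 CPM was 0.44 in the shallow pair and 0.48 in shTbl1xr1 3 and 4, where the sterol enzymes had 0.64 and -0.38, and the difference between the lists was not tested. Single genes did not all follow these medians: 8 of 14 were above the shNC mean in both pairs, and 6 lay on opposite sides (Acly, Acaca, Scd2, Fads1, Me1 and Mlxipl). On the scale of log2 of TPM plus 1, the medians of the list lay at -0.50 and -0.73 in shTbl1xr1 1 and 2 and at 0.39 and 0.92 in shTbl1xr1 3 and 4. The medians of all tested genes on that scale were -0.66, -0.79, 0.03 and 0.03 in shTbl1xr1 1 to 4. The shallow libraries thus changed side relative to shNC, but not relative to all genes. Scd1, the stearoyl-CoA desaturase and the gene with the smallest p of the list, had 399, 624, 879 and 562 CPM in the controls and 1201, 1596, 2581 and 2356 CPM after knockdown (log2 fold change 1.65, SE 0.33, adjusted p = 0.180). In TPM its shallow pair, at 167 and 195, lay within the shNC range of 101 to 263, and shTbl1xr1 3 and 4, at 773 and 696, were above it. Acly, the ATP citrate lyase, had log2 differences of -1.02 in the shallow pair and 0.07 in the other. Thrsp, Acacb and Acss2, the acetyl-CoA synthetase that feeds both routes, had log2 fold changes of 2.20, 1.12 and 0.67 (adjusted p = 0.217, 0.329 and 0.397).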

How the data were processed

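For each of 8 liver libraries the authors deposited 1 table of 55401 genes with an expected count (estimated fragments, not always whole), TPM and FPKM per gene, per the file headers. FPKM was not used. Tools listed in the submitters' processing notes are STAR, RSEM and DESeq2 1.30.1, with build mm10. For options, strand and annotation, the release included, nothing is given in the sources used here. GENCODE mouse release M21 (GRCm38) supplied gene coordinates and named 55141 identifiers.

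Expected counts were rounded, filtered by filterByExpr (13908 genes kept), scaled by TMM and compared by the quasi-likelihood F test of edgeR 4.0.16 in R 4.3.3, robust and without covariate, with Benjamini-Hochberg adjustment over all genes and a threshold of 0.05. Intervals are 95%. Log2 CPM used a prior count of 2; Tbl1xr1 was also tested over 70 arrangements on log2 of CPM plus 1. Alternatives were DESeq2 1.42.0, other scalings, no filter, a replicate block, a surrogate variable (sva 3.50.0), subsets of libraries and, added later, a length correction by lowess. Named genes were all 28 members, Tbl1xr1, and the 4 with the smallest p of each of the 2 further lists. Other genes were named outside that rule, for transcript length, opposite signs in the 2 pairs, non-overlapping groups, shared exons or marker levels. Members and lists were chosen with earlier results of these data known.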

Additional observations from a re-analysis of the deposited data

How the results depend on the processing

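No member passed under any alternative except the shallow pair alone, which called 5 members higher and 3 lower; signs were less stable. Directions that turned, as log2 fold changes, follow by setting. With library size alone, where the median of all genes shifted to -0.27, they were Mvk -0.096, Pmvk -0.14, Fdft1 -0.28, Cyp51 -0.26, Msmo1 -0.18, Ebp -0.056, Sc5d -0.23, Dhcr7 -0.089, Insig2 -0.24 and Abca1 -0.0305. With 1 surrogate variable they were Mvk -0.22, Pmvk -0.22, Fdps -0.46, Fdft1 -0.39, Cyp51 -0.43, Tm7sf2 -0.012, Msmo1 -0.25, Nsdhl -0.24, Ebp -0.31, Sc5d -0.075, Dhcr7 -0.028, Stard4 0.018 and Soat1 0.025. With the length trend removed they were Pmvk -0.061, Lss 0.11, Hsd17b7 0.087, Srebf2 0.0301, Insig2 -0.027 and Stard4 0.11. With the deeper libraries only they were Acat2 -0.013, Mvk -0.36, Pmvk -0.31, Fdps -0.70, Fdft1 -0.54, Cyp51 -0.59, Tm7sf2 -0.21, Msmo1 -0.43, Nsdhl -0.43, Ebp -0.48, Sc5d -0.14, Dhcr7 -0.15, Stard4 0.00603 and Soat1 0.27. With the shallow pair only they were Mvd 0.31, Idi1 0.17, Lss 0.012, Npc1 -0.37, Soat2 -0.053 and Abca1 -0.21. The median of members, 0.18, became -0.20, -0.16, 0.16, -0.18 and 0.27 in that order. Of the other sterol genes, 1 (Abcg8) passed as higher with DESeq2, with 1 surrogate variable and with the length trend removed. With the shallow pair only, 6 of these genes passed as higher and 5 as lower. That fit called 21.5% of all genes higher and 21.1% lower, so that neither share exceeds the background. Tbl1xr1 passed at -2.13 with DESeq2, -1.67 with 1 surrogate variable and -3.88 with the shallow pair only. The cause of these changes was not tested.

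Leaving out each library in turn gave -2.71 to -1.79 for Tbl1xr1, -0.10 to 0.32 for the median of members, and 0 members called. Signs turned within these ranges: Hmgcs1 -0.80 to 0.042, Mvk -0.21 to 0.48, Pmvk -0.22 to 0.50, Mvd -0.53 to 0.082, Fdps -0.084 to 0.89, Fdft1 -0.28 to 0.39, Lss -0.45 to 0.18, Cyp51 -0.21 to 0.39, Msmo1 -0.21 to 0.55, Sc5d -0.11 to 0.32, Dhcr7 -0.012 to 0.59, Insig2 -0.14 to 0.28, Npc1 -0.088 to 0.35, Stard4 -0.40 to 0.098 and Abca1 -0.11 to 0.32. Without shTbl1xr1 1, 8 members turned negative. Same-numbered libraries correlated at 0.379, -0.0737, 0.305 and 0.12, so the numbers were not taken as pairs, and 3 of 4 correlated best with their own number. With the replicate block, 5 genes and 0 members passed, the median of members was 0.11, and Insig2 turned to -0.0093. Depth limits Mylip and Soat1 most.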
